A study of Mus musculus with 16 samples.

Results

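Klf2, Klf4, Klf6, Klf10 and Nos3, 4 Krüppel-like zinc finger transcription factors (KLF) and the endothelial nitric oxide synthase, were followed in endothelial cells (EC) of the mouse lung while a tumour grew elsewhere in the body, after it was removed, and when metastases were present. They were chosen by name, as genes known to respond to blood flow, and are 5 of the 28692 gene symbols in the deposited count table. The EC came from female C57BL/6N mice and were sorted by fluorescence. The groups were d0 (wild-type mice with no tumour), d15 (a primary tumour under the skin, grown from the mouse line Lewis lung carcinoma), d22 (the primary tumour resected) and d36 (metastases). Of the 16 libraries, 4 belonged to each day, but the cell names carry the day alone, so each day was 1 pooled sample: there was no test between days, no spread between mice or libraries was measured, and every interval here is a 95% interval of counting error only. Flow was not measured.

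KLF2 and KLF4 are made in EC under steady laminar flow, through a kinase chain that ends in MEF2 transcription factors, and they switch on genes for vessel dilation and against clotting while holding back inflammatory genes. NOS3 makes nitric oxide, which relaxes the muscle of the vessel wall, and its gene is a known target of KLF2. KLF6 is made early after stress or injury, and KLF10 is an early response gene of TGF-beta signalling. The same KLF genes also answer to tissue dissociation and other stresses, so their RNA level by itself does not report flow.

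Per the GENCODE M21 annotation of GRCm38, Klf2 lies on the plus strand at chr8:72319033-72321656, Klf4 on the minus strand at chr4:55527143-55532466, Klf6 on the plus strand at chr13:5861482-5870394, Klf10 on the minus strand at chr15:38291463-38300706 and Nos3 on the plus strand at chr5:24364810-24384474. Nos3 overlaps Atg9b and Gm15587 on the opposite strand. How the authors' counting used strand is not given in the sources used here, so reads of Nos3 and of these neighbours cannot be told apart with certainty. Atg9b held 3.17, 5.64, 2.93 and 4.02 CPM (counts per 1000000 UMIs) at d0, d15, d22 and d36, and Gm15587 stayed below 1 CPM at each day.

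The sequence just upstream of Klf2 is shown because it holds a match to the MEF2 motif, the end point of the flow pathway, and the one upstream of Klf4 is shown beside it because Klf2 and Klf4 were often compared below. Both are from RefSeq (GRCm38.p6), are written 5′ to 3′ on the gene's strand. The Klf2 sequence ends before the GENCODE start and the Klf4 sequence before the RefSeq start. The sequences cover chr8:72318812-72319032 on the plus strand for Klf2 and chr4:55532476-55532725 on the minus strand for Klf4, and capitals mark the MEF2 match.
Klf2: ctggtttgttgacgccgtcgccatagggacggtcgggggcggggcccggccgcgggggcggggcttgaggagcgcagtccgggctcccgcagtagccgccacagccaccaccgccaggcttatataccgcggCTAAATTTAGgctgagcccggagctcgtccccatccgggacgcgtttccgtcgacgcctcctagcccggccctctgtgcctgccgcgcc
Klf4: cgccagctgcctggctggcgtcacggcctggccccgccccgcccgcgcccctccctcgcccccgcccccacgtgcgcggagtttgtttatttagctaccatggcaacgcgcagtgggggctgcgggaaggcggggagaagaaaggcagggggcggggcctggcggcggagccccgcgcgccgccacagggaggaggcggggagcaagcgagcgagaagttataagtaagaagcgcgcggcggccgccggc
The match, CTAAATTTAG, began at position -118 from the RefSeq start of Klf2 and at -89 from its GENCODE start, where the sequence shown ends. Windows of 300 bases, 250 before to 50 after the start, were found for Klf2, Klf4 and Klf6 and searched on both strands for the MEF2 motif, the CArG box of serum response factor and the CACCC box to which KLF proteins bind. The windows of Klf4 and Klf6 held none of the 3 motifs, and that of Klf2 held 1 MEF2 match and 1 CACCC box, which did not overlap. Of 32851 mouse promoter windows of the same length, 3.19% held a MEF2 match, 1.63% a CArG box and 57.5% a CACCC box. A match describes the letters and does not show that a factor binds there.

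The table held 9036 cells, of which 8900 were kept as EC, with 2636, 1489, 3192 and 1583 at d0, d15, d22 and d36. Depth moved with the day: EC had median counts of 7653.5, 4168, 7667 and 3409 UMIs (unique molecular identifiers, 1 per captured transcript) at d0, d15, d22 and d36, and day totals of 23023421, 6915688, 27639323 and 6720459 UMIs. The shallow days, d15 and d36, are also the days with a tumour or metastases, so in this design depth and disease state cannot be told apart from day totals alone. The 6 pan-endothelial markers summed to between 9785 and 11344 CPM at each day. Cells in clusters led by genes of other cell types, and cells rich in markers of those types, had been left out of the EC. Low sums of such markers in the EC were therefore partly fixed in advance. Each of the 10 marker lists of other cell types summed to at most 124 CPM at any day. The highest was the epithelial list (76.4, 50.5, 124 and 122 CPM), leukocyte and B cell lists each reached 17.4 CPM at d36, and the fibroblast list was at 0 at d15. Among defining markers, Cspg4, Msln and Wt1 were at 0 at every day. Only 36 cell barcodes occurred at 2 days, and none at more.

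Klf2 was higher at d15 and d36 than at d0 or d22. It stood at 2637, 4052, 2494 and 4474 CPM at d0, d15, d22 and d36. The order was d36, d15, d0, d22 from the top, and no 2 days had overlapping intervals. The shift was seen across most cells. After each cell was thinned to 1250 UMIs, the median EC held 2, 4, 2 and 5 Klf2 UMIs on the 4 days, and 80.7%, 87.2%, 75.7% and 87.8% of EC had at least 1.

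Klf4, the factor that shares most known targets with Klf2, had the same order with smaller differences. Its levels were 752, 1023, 684 and 1052 CPM at d0, d15, d22 and d36. The intervals of d15 and d36 overlapped, and those of d0 and d22 did not. In thinned cells, the share of EC with a Klf4 UMI was 43.2%, 46.1%, 40.9% and 48.1%.

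Klf10, the TGF-beta early response gene, had the ratio farthest from 1 of the 5 genes in each comparison between days but d36 against d15. Over the 4 days its levels were 88.4, 166, 70.8 and 158 CPM. Its levels at d15 and d36 overlapped in their intervals, and both lay above d0 and d22. In thinned cells 7.47%, 12.2%, 6.27% and 11.2% of EC had a Klf10 UMI. Its UMIs came from few cells: the 10% of EC with most Klf10 UMIs held 73.3%, 65.8%, 77.8% and 73.1% of them.

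Klf6, the stress-response member, was nearly level. Over the 4 days it stood at 262, 293, 260 and 304 CPM. The intervals of d0 and d22 overlapped, as did those of d15 and d36. Its share of thinned cells was 20.03%, 17.7%, 19.4% and 17.2%, lower at the days when the summed level was higher.

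Nos3 was caught at low counts. At d0 its level was 16.5 CPM (interval 14.9 to 18.3) from 380 UMIs, and with the primary tumour at d15 it was 25.6 CPM (21.96 to 29.7) from 177. After resection, at d22, it was 15.1 CPM (13.7 to 16.6) from 417 UMIs, and with metastases at d36 it was 18.005 CPM (14.9 to 21.5) from 121. The level at d15 stood above the intervals of the other days, and those of d0, d22 and d36 overlapped. Among EC of 6000 to 10000 UMIs, however, d15 had 20.3 CPM and d0 had 19.9. In thinned cells 1.71%, 2.22%, 1.504% and 1.39% of EC had a Nos3 UMI, and these 4 intervals overlapped.

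**Figure D1:**
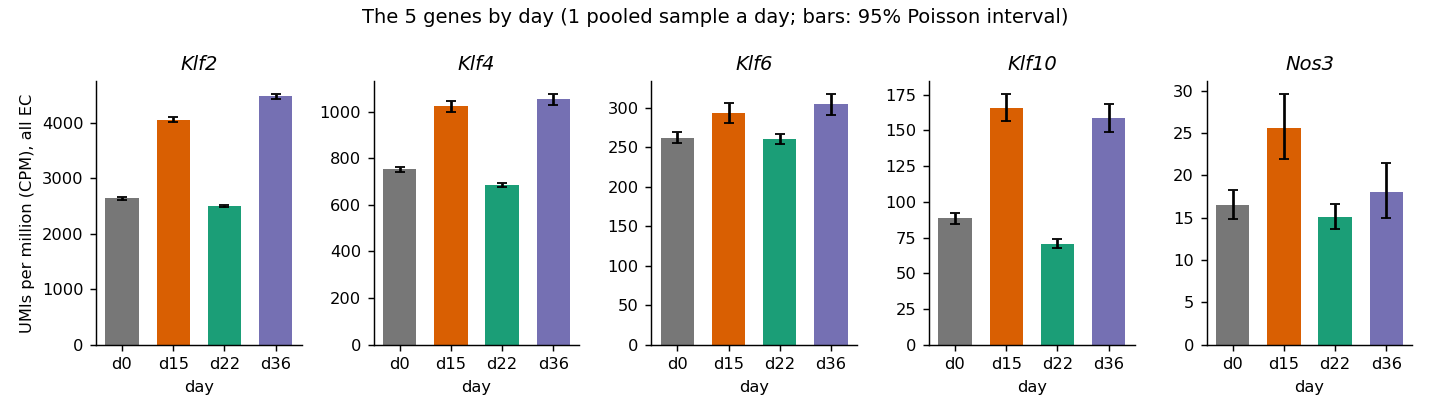
Level of each gene over all EC in CPM (vertical axis, starting at 0 and scaled per gene) at d0, d15, d22 and d36. Bars are 1 pooled sample a day, and error bars are the 95% Poisson interval of counting error. Klf2, Klf4 and Klf10 stand higher at d15 and d36 than at d0 and d22, Klf6 is nearly level, and Nos3 is low with wide intervals.

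A gene was counted as measured in a comparison where the higher day reached 50 CPM and both days together held 200 UMIs, and was called by size where the ratio reached 1.5, or its inverse, with 1 outside the interval; this is named the size rule here. Nos3 stayed below 50 CPM at each day, so 4 of the 5 genes could meet the rule. At d15 against d0, 2 of the 4 met it upward, where 4.07% of 3710 measured genes did so and 2.26% met it downward. Klf2 had a ratio of 1.54 (interval 1.51 to 1.56) and Klf10 of 1.88 (1.74 to 2.02). The ratio was 1.36 for Klf4 and 1.12 for Klf6, and for Nos3 it was 1.55 (1.29 to 1.86). The Klf2 ratio is close to the size rule, and it was 1.48 with the trimmed mean of M-values (TMM) as scaling or 1.4998 with vessel groups weighted to equal shares, each just under it.

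At d36 against d0, Klf2 (1.70, interval 1.67 to 1.72) and Klf10 (1.79, 1.66 to 1.93) again met the rule upward, 2 of the 4 measured against 4.3% of 3647 measured genes, with 3.29% downward. Klf4 had a ratio of 1.40, Klf6 of 1.16 and Nos3 of 1.09 (0.882 to 1.34). At d22 against d0, after resection, none of the 4 met the rule in either direction, where 0.253% of 3564 measured genes were higher and 1.71% lower. The ratios there were 0.946 for Klf2, 0.910 for Klf4, 0.992 for Klf6, 0.801 for Klf10 and 0.914 for Nos3. These 3 comparisons share the d0 cells.

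The step between d22 and d15 ran downward. Klf2 (ratio 0.616) and Klf10 (0.427) met the rule, 2 of 4 measured, where 5.57% of 3696 measured genes were lower and 1.76% higher. Klf4 at 0.669 fell just short of the bound. At d36 against d22, metastasis against resection, 3 of the 4 met the rule upward, against 5.83% of 3634 measured genes, with 2.48% downward. These were Klf2 at 1.79, Klf4 at 1.54 and Klf10 at 2.24. Klf6 had a ratio of 1.17. At d36 against d15, the shallow days, none of the 4 met it, where 0.63% of 3648 measured genes were higher and 1.59% lower. There the ratios were 1.104, 1.03, 1.04 and 0.955 for Klf2, Klf4, Klf6 and Klf10, and 0.703 for Nos3.

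Because depth moved with the day, levels were also taken from cells of like depth. Among EC of 4000 to 6000 UMIs, with 456, 358, 510 and 321 cells on the 4 days, Klf2 stood at 2709, 4266, 2286 and 5136 CPM. In the same cells Klf10 stood at 73.1, 180, 53.8 and 140 CPM, and Klf4 at 686, 986, 575 and 1036 CPM. Klf2 was likewise higher at d15 and d36 in EC of 2600 to 4000 UMIs (2096, 4019, 2232 and 4572 CPM) and of 6000 to 10000 UMIs (2813, 4101, 2506 and 4386 CPM). Against d0, the Klf2 ratio was 1.92, 1.57 and 1.46 at d15 and 2.18, 1.90 and 1.56 at d36, over the bands in order of depth. The Klf10 ratio was 1.88, 2.46 and 1.84 at d15 and 2.05, 1.91 and 1.85 at d36. Among general capillary-like cells alone it was 1.21, 2.199 and 1.797 at d15 and 1.27, 1.793 and 2.101 at d36. In the shallowest band of these cells the Klf10 intervals overlapped, at d0 (75.97 to 124), d15 (90.6 to 152) and d36 (96.8 to 156). Over all EC, Klf2 and Klf10 were higher at d15 and d36 than at d0 in each band. Klf2 at d15 missed the ratio of 1.5 in the deepest one. The Klf4 ratio was 1.48, 1.44 and 1.34 at d15 and 1.78, 1.51 and 1.25 at d36. The Nos3 ratio at d15 was 2.68, 2.23 and 1.02, from 30, 67 and 50 UMIs at d15 against 18, 38 and 153 at d0, so its higher level at d15 was not seen in the deepest band. What part depth has in these differences was not tested. Klf6 held 287, 282, 256 and 324 CPM in the middle band. These bands were chosen after seeing the data.

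Levels were next set out by vessel group. General capillary-like cells (Gpihbp1, Plvap) line gas-exchange capillaries and also serve in their repair, and aerocyte-like cells (Car4, Ednrb) are the wide, thin capillary cells that lie against the air space. Arterial-like cells (Bmx, Mgp) and venous-like cells (Slc6a2, Car8) line the larger vessels. Over all days, Plvap was higher in arterial-like cells (5030 CPM) than in general capillary-like cells (3795). Gpihbp1 stood at 2078 CPM in general capillary-like cells, 1604 in arterial-like cells and 2117 in clusters left unnamed. The other markers in brackets were each highest in their own group. Sox17, from the arterial list, was lower in arterial-like (318 CPM) than in general capillary-like cells (553). The cells were clustered without the 5 genes, and groups were used with at least 50 cells, which left out venous-like cells at d36 and all lymphatic-like and proliferating cells. Of general capillary-like cells, most at d0 lay in the clusters led by Pcp4l1 and Atf3, at d15 and d36 in the clusters led by Hmcn1 and Slc39a1, and at d22 in those led by H2-DMa, Atf3 and Pcp4l1. The clusters led by Atf3, H2-DMa, Slc39a1, Ifit3b and Gm42477 took that name by score, with no general capillary marker among their leading genes. Aerocyte-like cells lay mostly in the cluster led by Chst1 at d0, d15 and d22, and in the one led by Lmo7 at d36.

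The range of levels over the named vessel groups was wider for Nos3 than for the KLF genes at each day, though narrowest at d36. Venous-like cells held 52.4 CPM at d0, 101 at d15 and 28.3 at d22, and arterial-like cells held 30.5, 60.9, 26.5 and 25.7 CPM at d0, d15, d22 and d36. General capillary-like cells held 17.8, 21.04, 17.5 and 21.96 CPM, and aerocyte-like cells 2.81, 1.63, 4.41 and 9.29 CPM from 17, 2, 32 and 11 UMIs. At d0 the intervals of venous-like (41.4 to 65.5) and arterial-like cells (21.8 to 41.5) overlapped by a little, those of arterial-like and general capillary-like cells (15.5 to 20.3) did not, and the interval of aerocyte-like cells lay below all. At d15 the order of the intervals was the same. At d22 the arterial-like interval overlapped both the venous-like and the general capillary-like ones, and at d36 it overlapped the general capillary-like and the aerocyte-like ones. Of single clusters, the highest Nos3 was in the venous-like one at d0 and d15, but in general capillary-like ones at d22 (led by Gm42477, 49.1 CPM from 30 UMIs) and d36 (led by Atf3, 33.5 CPM from 17 UMIs). Over all days and after thinning, 4.86% of venous-like cells had a Nos3 UMI (interval 2.91 to 7.58) and 0.490% of aerocyte-like cells (0.197 to 1.01). The aerocyte-like cluster led by Lmo7 had no Nos3 UMI in 56, 84, 71 and 153 cells at d0, d15, d22 and d36. The one led by Chst1 held 2.92, 2.04, 4.59 and 14.02 CPM, from 17, 2, 32 and 11 UMIs. Its interval at d36 (6.999 to 25.09) lay above those of d0 (1.701 to 4.675) and d22 (3.14 to 6.48) and overlapped that of d15. As a background, 1 of 61 cells in a cluster led by fibroblast genes such as Mfap4 had a Nos3 UMI (1.64%, interval 0.0415 to 8.80, median 5027 UMIs), and 4 of 52 cells in a cluster led by epithelial and platelet genes (7.69%, interval 2.14 to 18.5, median 7185.5 UMIs). Both clusters also held pan-endothelial markers, at 3470 and 2522 CPM against 10319 in EC. The unthinned shares were 12.7% in venous-like cells (median 8621.5 UMIs) and 1.89% in aerocyte-like cells (median 10565.5 UMIs). The aerocyte-like share over all days was close to the first background share and below the second, so it was not told from background. The venous-like share was above both but within the interval of the second, so from these shares alone it cannot be told from background.

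Klf10 ran the other way. It was highest in aerocyte-like cells, with 133, 233, 118 and 231 CPM at d0, d15, d22 and d36. General capillary-like cells held 75.1, 148, 52.0 and 150 CPM, arterial-like cells 53.3, 122, 44.7 and 98.4 CPM, and venous-like cells 75.6, 178 and 76.7 CPM at d0, d15 and d22. The intervals of aerocyte-like cells lay above those of every other named group at d0, d22 and d36, and overlapped those of venous-like cells at d15. Within each of these groups each measured day kept the order of the whole, d15 and d36 above d0 and d22.

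Klf4 was also high in aerocyte-like cells, with 958, 1256, 824 and 1229 CPM, against 672, 1018, 617 and 1067 CPM in general capillary-like cells. In arterial-like cells it stood at 646, 662, 673 and 826 CPM, with overlapping intervals at d0, d15 and d22, and in venous-like cells at 865, 1066 and 843 CPM. Klf2 varied less by vessel than Klf4 did at d0, d15 and d36, though not at d22. It stood at 2781, 3660, 2705 and 4246 CPM in aerocyte-like cells, 2571, 4143, 2383 and 4532 CPM in general capillary-like cells, 2970, 3944, 2546 and 4372 CPM in arterial-like cells, and 2991, 4727 and 3411 CPM in venous-like cells. Klf6 was 264, 282, 230 and 323 CPM in aerocyte-like cells, 256, 267, 263 and 301 in general capillary-like cells, 309, 278, 344 and 400 in arterial-like cells and 296, 464 and 317 in venous-like cells. Cells of clusters poor in Malat1, a nuclear RNA, had the lowest Klf2, Klf4 and Klf6 of these groups at each day, with 1036, 1286, 757 and 2424 CPM of Klf2.

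**Figure D2:**
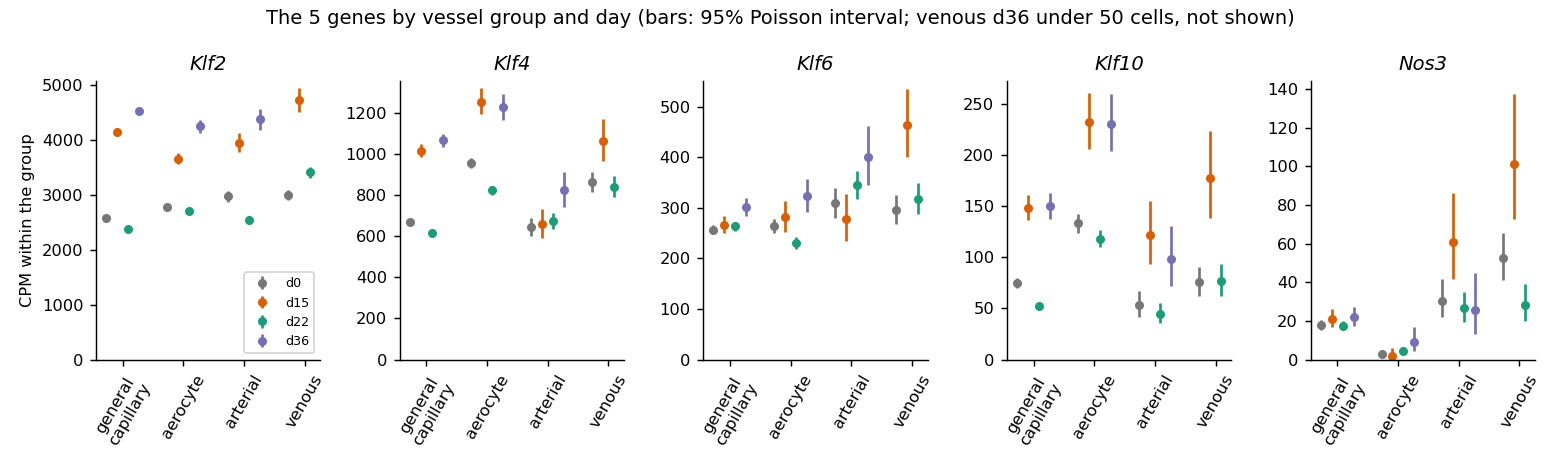
Level of each gene in CPM of the group (vertical axis, starting at 0 and scaled per gene) in 4 vessel groups (horizontal axis) at d0, d15, d22 and d36 (colours). Points are pooled samples and error bars the 95% Poisson interval. Nos3 is highest in venous-like cells at d0, d15 and d22 and lowest in aerocyte-like cells, where Klf10 is highest.

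Within groups, the differences of Klf2 between days kept their direction at d15 and d36. For d15 against d0 its ratio was 1.61 in general capillary-like, 1.32 in aerocyte-like, 1.33 in arterial-like and 1.58 in venous-like cells. For d36 against d0 it was 1.76, 1.53 and 1.47 in general capillary-like, aerocyte-like and arterial-like cells. The difference between groups was not tested. Over single clusters with at least 50 cells at both days, Klf2 was higher in 9 of 9 at d15 against d0 (ratios 1.27 to 1.79) and in 10 of 10 at d36 against d0 (1.46 to 2.86). Klf4 was higher in 9 of 9 (1.02 to 1.80) and 10 of 10 (1.13 to 2.02). Its lowest ratio at d15, in the arterial-like cluster, had an interval of 0.901 to 1.16. Klf10 was higher in 8 of 9 at d15 (0.930 to 2.35), all but the cluster led by interferon-induced genes such as Ifit3b, and in 10 of 10 at d36 (1.32 to 5.55). Klf6 was higher in 5 of 9 and 7 of 10. The highest Klf2 and Klf10 ratios at d36 were in the Malat1-poor cluster led by Cyb5r3. For Klf10 that ratio came from 23 UMIs at d36 and 12 at d0. The clusters of a day are parts of 1 pooled sample, and such counts are not given for other genes.

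Klf4 in general capillary-like cells had a ratio of 1.51 at d15 and 1.59 at d36 against d0, both past the size rule, which 5.67% of 3723 measured genes met upward in these cells at d15 and 5.28% of 3674 at d36. In arterial-like cells it was 1.02 at d15 and 1.28 at d36. Klf6 in venous-like cells had a ratio of 1.57 at d15 against d0, from 60 cells at d15 and 140 at d0, where 8.58% of 1760 measured genes met the rule upward. Nos3 had ratios of 1.93 in venous-like and 1.997 in arterial-like cells at d15 against d0, and 1.18 in general capillary-like cells, from too few UMIs to count as measured in any of them.

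Early response genes such as Fos, Jun, Egr1 and Atf3, which rise within minutes of stress and during tissue dissociation, were read beside the KLF genes. The 17 genes of that list summed to 11318.5, 13538, 11866 and 13425 CPM over the 4 days, and 9 heat shock genes to 3058, 3555, 2493 and 3640 CPM, so both lists were highest at d15 and d36. Klf2 and Klf4 were higher in cells with more early response RNA at each day, and Klf6 was so at d0, d22 and d36. Between the third of cells with the highest and the third with the lowest early response share, after thinning, the ratio for Klf2 was 1.82, 1.26, 1.78 and 1.70 at d0, d15, d22 and d36. For Klf4 it was 2.64, 1.96, 2.30 and 2.04, and for Klf6 2.57, 1.12, 3.13 and 2.45. For Klf10 it was 0.718, 0.909, 1.61 and 0.816, and for Nos3 0.732, 1.13, 1.38 and 1.28. In all, 16 of the 20 ratios were above 1, a count not set beside other genes. The intervals of the highest and lowest classes overlapped for Nos3 at each day, from 11 to 26 UMIs a class. They also overlapped for Klf6 at d15 and for Klf10 at d0, d15 and d36. Between 19.9% and 24.7% of cells lay within 1 UMI of a bound between the classes.

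Levels by day were also read at like counts of early response UMIs. What part early response has in the differences between days was not tested. Among cells with 0 to 10 such UMIs of 1250, Klf2 stood at 1928, 3431, 1813 and 3224 CPM at d0, d15, d22 and d36, and Klf10 at 90.2, 166, 51.9 and 166 CPM. With 11 to 20, Klf2 stood at 2810, 4193, 2668 and 4640 CPM and Klf10 at 76.4, 180, 64.2 and 182 CPM. Among cells with 21 to 40, Klf2 stood at 3578, 4170, 2989 and 5503 CPM and Klf10 at 58.6, 157, 84.5 and 132 CPM. With over 40, Klf2 stood at 3812, 5408, 3435 and 5870 CPM. Klf10 there stood at 94.1, 224, 47.1 and 101 CPM, from 10, 21, 6 and 9 UMIs, and its intervals at d0 (45.1 to 173) and d36 (46.4 to 193) overlapped. Klf4 in the first class was 444, 649, 446 and 707 CPM, and with 21 to 40 early response UMIs it was 1267, 1163, 907 and 1440 CPM, where d15 was not above d0. Of single clusters, Klf4 was highest in the one led by Atf3 at each day, where it held 1082, 1525, 965 and 1421 CPM, and Klf6 was highest there at d0, d22 and d36 with 462, 435 and 412 CPM. Without the clusters led by early response genes, the calls of Klf2 and Klf10 at d15 and d36 against d0 held.

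**Figure D3:**
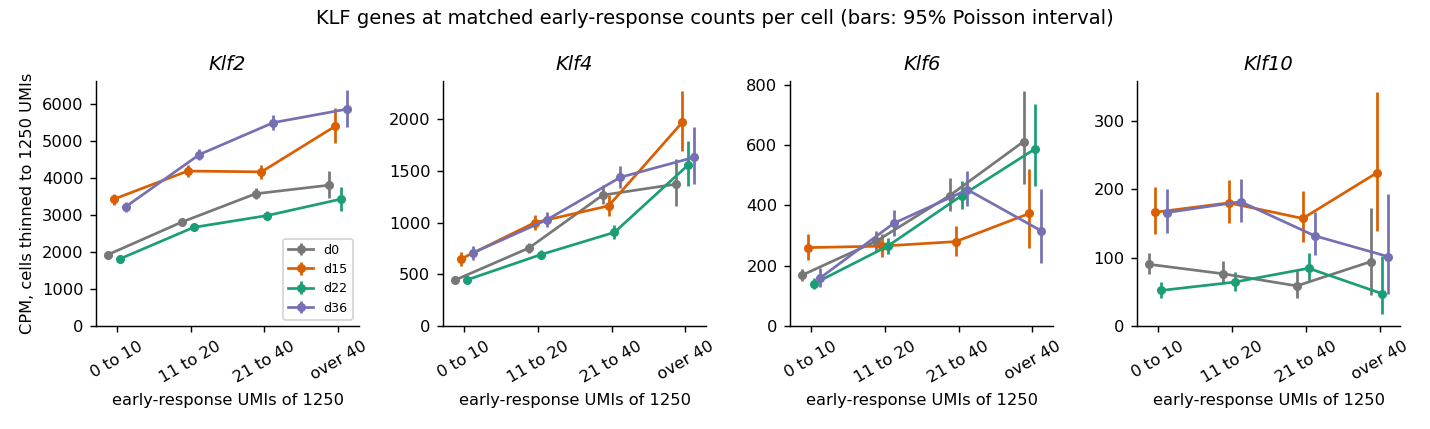
Level of the 4 KLF genes in CPM (vertical axis, starting at 0) in cells thinned to 1250 UMIs and grouped by their number of early response UMIs (horizontal axis), at d0, d15, d22 and d36 (colours). Points are pooled cells and error bars the 95% Poisson interval. Klf2 and Klf4 are higher in the class over 40 than in the class 0 to 10 at each day, and Klf2 and Klf10 at d15 and d36 lie above d0 and d22 in the class with 0 to 10.

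From cell to cell among general capillary-like cells, Klf4 went with Klf2 at d0, d22 and d36. In cells with 0, 1 to 2, 3 to 5 and 6 or more Klf2 UMIs of 1250, Klf4 stood at 424, 511, 724 and 1146 CPM at d0, and at 585, 811, 1004 and 1378 CPM at d36. At d15 it stood at 884, 587, 899 and 1243 CPM, which was not a steady climb. Early response genes were higher over the same classes, at d0 with sums of 9932, 10167, 12555 and 14891 CPM. Nos3 stood at 19.0, 21.4, 20.8 and 18.8 CPM at d0, from 7, 13, 12 and 7 UMIs. The intervals of its first and last classes were 7.66 to 39.2 and 7.56 to 38.7, too wide to tell whether it had an order. Thbd, the thrombomodulin gene and a known KLF2 target, stood at 931, 1018, 1173 and 1262 CPM at d0. Its climb was not steady at the other days. It stood at 703, 712, 797 and 744 CPM at d15, 647, 687, 674 and 818 at d22, and 615, 375, 616 and 644 at d36. S1pr1, also a known target, ran downward at d0, with 248, 226, 205 and 188 CPM. The intervals of its first and last classes there overlapped (199 to 304 and 146 to 237). S1pr1 had no steady order at the other days.

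Known targets of KLF2 and KLF4 did not move as one with the factors. Of 12 genes that KLF2 or KLF4 are known to raise, 8 were measured. At d15 against d0, S1pr1, the receptor for sphingosine-1-phosphate (ratio 1.64), and Plat, the tissue plasminogen activator (1.79), met the rule upward, and Thbd (0.601) and Cyp1a1, a xenobiotic enzyme (0.0288), met it downward. The list's median log2 ratio was 0.12, against 0.01 over all measured genes. At d22 against d0 none met it upward and Cyp1a1 (0.0472), Thbd (0.531) and Timp3, a metalloproteinase inhibitor (0.567), met it downward. Gja4, a gap junction gene of arteries (1.43), and S1pr1 (1.099) had the highest ratios there, and the list's median was -0.11, against 0.01. At d36 against d0 S1pr1 (1.73) met it upward, Cyp1a1 (0.0423) and Thbd (0.462) downward, Plat stood at 1.45, and the median was -0.02, against -0.03.

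Thbd stood at 1093, 657, 580 and 505 CPM at d0, d15, d22 and d36, lower at each later day, so its order differed from that of Klf2. S1pr1 stood at 225, 369, 248 and 390 CPM, with d36 and d15 on top as for Klf2, but with d0 lowest. Cyp1a1 stood at 1210, 34.8, 57.1 and 51.2 CPM. Cyp1a1 also answers to the aryl hydrocarbon receptor.

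Of 10 genes that KLF2 or KLF4 are known to lower, 4 were measured, and 3 of them are described here. Vcam1, a leukocyte adhesion molecule, met the rule downward against d0 at d15 (0.593) and d36 (0.514). At d22 its ratio was 0.727 and no gene of the list met it. Edn1, which encodes the constrictor endothelin-1, stood at 155, 206, 188 and 228 CPM, with ratios of 1.32, 1.21 and 1.47 against d0, and Icam1 had ratios of 1.05, 1.06 and 0.938. The median log2 ratios of the list were -0.34, -0.13 and -0.36 at d15, d22 and d36 against d0, beside 0.01, 0.01 and -0.03 over all measured genes.

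The lists that follow are to be read beside all measured genes. Of these, 4.07%, 0.253% and 4.3% met the rule upward and 2.26%, 1.71% and 3.29% downward at d15, d22 and d36 against d0, with median log2 ratios of 0.01, 0.01 and -0.03. A list of 4 to 13 measured genes with none past the rule is close to these shares, and its count of 0 shows nothing particular to it.

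No measured gene of nitric oxide synthesis and its regulators met the rule against d0, of 13 measured at d15 and d36 and 12 at d22, from a list of 22. At d15 the highest were Gch1, which makes the cofactor of NOS3 (1.32), and Ass1, which regenerates arginine (1.25), and the lowest Nosip (0.730) and Calm3 (0.831). At d22 Ddah2 (1.09) and Spr (1.09) were highest and Hsp90ab1 (0.841) and Ddah1 (0.859) lowest. At d36 Ass1 (1.29) and Gch1 (1.24) were highest and Ddah1 (0.710) and Nosip (0.811) lowest. The list's median log2 ratios were -0.03, -0.07 and -0.09. Nosip and Nostrin encode proteins that bind NOS3, and Nostrin had ratios of 0.891, 1.03 and 0.868.

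None of 9, 8 and 8 measured flow sensors met the rule at d15, d22 and d36 against d0, from a list of 13. Notch1 (1.38) and P2rx4 (1.29) were highest at d15, and Kdr (0.867) and Gna11 (0.896) lowest. At d22 P2rx4 (1.14) and Notch1 (1.07) were highest and Cdh5 (0.855) and Pecam1 (0.867) lowest. At d36 Notch1 (1.39) and Gnaq (1.23) were highest and Gna11 (0.765) and Kdr (0.814) lowest. The median log2 ratios were 0.01, -0.01 and -0.09. Piezo1, a stretch-gated channel, held 49.3, 51.2, 44.2 and 40.03 CPM.

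The kinase chain above Klf2 and its brakes, a list of 13 genes, had none past the rule against d0, of 7, 6 and 7 measured, and median log2 ratios of 0.16, -0.13 and 0.13. Heg1 (1.46) and Hdac7 (1.25) were highest at d15 and Mef2a (0.843) and Mef2c (0.998) lowest. At d22 Pdcd10 (1.02) and Mef2c (0.970) were highest and Heg1 (0.798) and Mef2a (0.891) lowest, and at d36 Hdac7 (1.17) and Hdac5 (1.14) were highest and Mef2a (0.848) and Mef2c (0.950) lowest. Among the other KLF and SP factors, 4 of 20 were measured and none met the rule, with median log2 ratios of 0.35, -0.02 and 0.03. Klf13 (1.42, 0.991 and 1.04) and Klf3 (1.40, 0.979 and 1.35) had higher ratios at d15 than Klf9 (1.16, 1.05 and 1.00) and Klf7 (0.910, 0.964 and 0.727).

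Of 8 TGF-beta targets (KLF10 is also called TGF-beta inducible early gene), 7 were measured. At d15 against d0 Smad6, an inhibitor of the pathway (1.73), met the rule upward, with Smad7 at 1.47 and Id3 at 1.20. At d36 Smad6 (1.68) and Skil (1.54) met it upward, with Id3 at 1.21. At d15 and at d36, 1 measured target, not reported here, met it downward. At d22 none met it, with Smad7 (1.26) and Smad6 (1.23) highest and Skil at 0.908. The median log2 ratios over all 7 were 0.52, 0.16 and 0.44.

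Of 17 early response genes 13 were measured, and Dusp1, a phosphatase gene that glucocorticoids also raise, alone met the rule upward, at d15 (1.57) and d36 (1.60). At d15 Ier2 (1.26) came next and Atf3 (0.688) and Egr1 (0.792) were lowest. At d22 Ier3 (1.14) and Zfp36 (1.12) were highest and Fosb (0.943) and Ier5 (0.966) lowest, and at d36 Ier2 (1.43) came after Dusp1, and Fosb (0.718) and Egr1 (0.834) were lowest. The list's median log2 ratios were 0.23, 0.05 and 0.06. Of 7 measured heat shock genes, whose medians were 0.00, -0.25 and 0.22, Hspa1a met it downward at d22 (0.546) and upward at d36 (2.22). Hspa8 (1.33) and Dnaja1 (1.16) were highest at d15 and Hspb1 (0.711) and Hspa1a (0.782) lowest. At d22 Hspe1 (0.991) and Hspd1 (0.936) were highest and Hspb1 (0.782) was second lowest, and at d36 Hspa8 (1.33) came second and Hspb1 (0.695) and Hspe1 (0.921) were lowest.

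**Figure D4:**
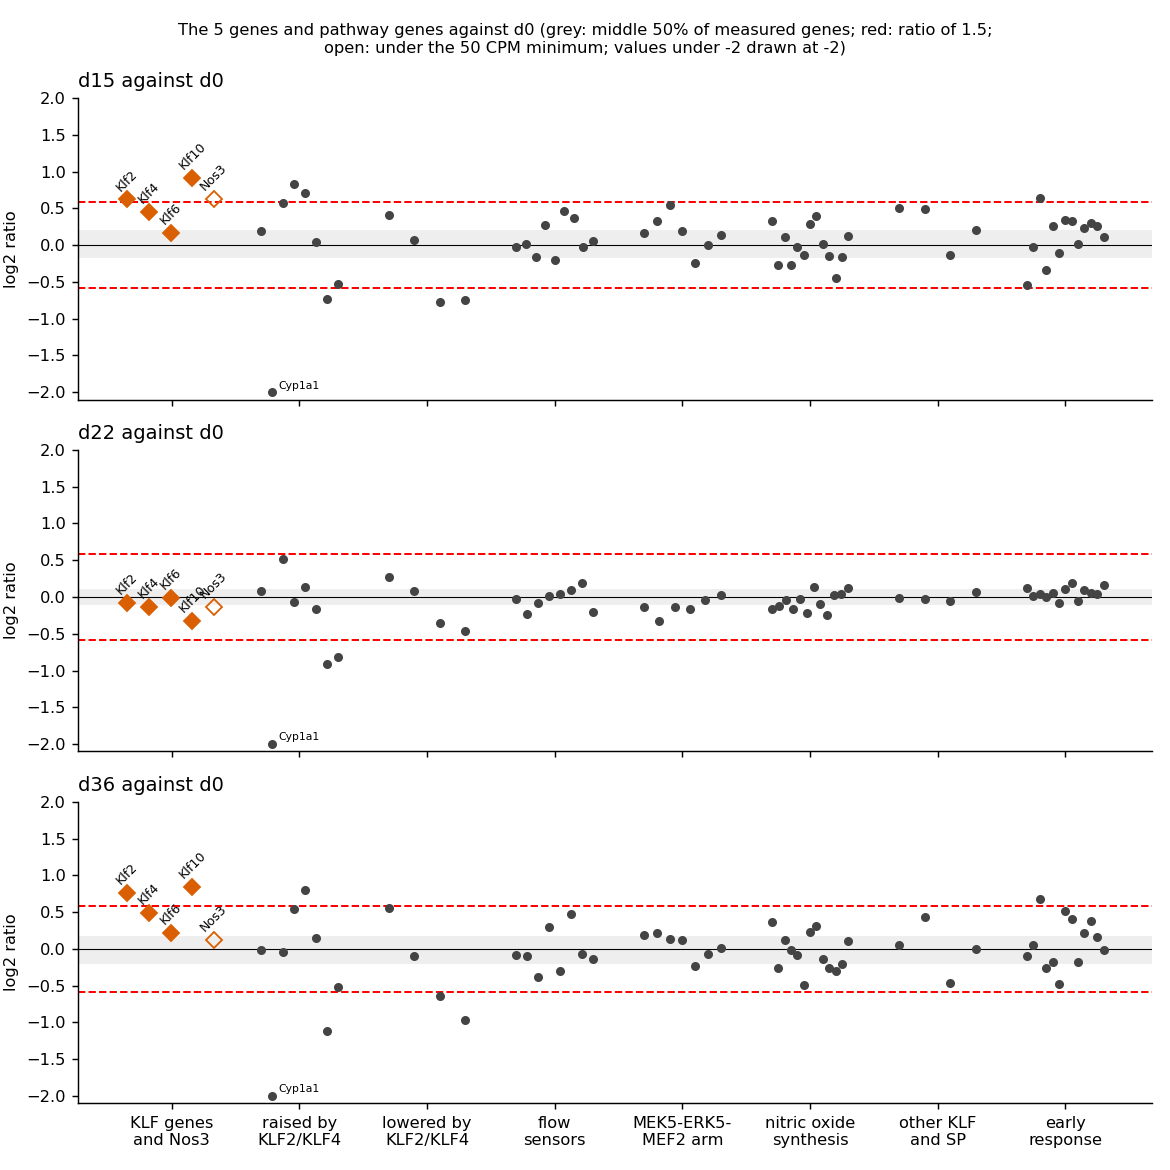
Log2 ratios against d0 (vertical axis) of the 4 KLF genes and Nos3 (diamonds, Nos3 open because it is under the 50 CPM minimum) and of the measured genes of 7 lists (dots), at d15, d22 and d36. The grey band is the middle 50% of measured genes and the dashed lines a ratio of 1.5, and Cyp1a1 is drawn at -2. Klf2 and Klf10 lie above the upper line at d15 and d36 and no KLF gene does at d22.

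Over the 15 sums of a day and a named vessel group, the genes most like each of the 5 in log2(CPM + 1) were searched among 3252 genes. These are correlations over sums that share days and depth, and they are a description. Klf2 was most like Psme2b (Pearson r = 0.92), Wdr89 (0.92) and Neat1 (0.89), and Klf4 most like Klf10 (0.88), Asah1 (0.86) and Nck1 (0.86). Klf10 was most like Tsc22d3, a gene that glucocorticoids raise (0.93), Coq10b (0.89) and Klf4 (0.88). Klf6 was most like Mrps14 (0.85), Cmip (0.82) and Phpt1 (0.81). Nos3 was most like Eln, the elastin gene (0.96), Nfia (0.95) and Qsox1 (0.94). Between the 5 genes, Klf2 with Klf10 had r = 0.71, Klf2 with Klf4 r = 0.64, and Klf2 with Nos3 r = 0.28, while Klf4 with Nos3 had r = -0.36.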

How the data were processed

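The values, as deposited, are raw counts: whole UMIs for each gene in each cell, with no scaling by the authors. Per the submitters' processing notes the authors used Cell Ranger 2.1.1 and the build mm10. Libraries were 10x Genomics 3′ version 2, per the labels' protocols. Which annotation they counted on, and how cells were filtered, is not stated in the labels.

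A cell needed 300 detected genes and no more than 10% of its UMIs from mitochondrial genes (19 failed). Log-normalised values of the 2000 most variable genes, leaving out the 5 genes studied, gave 30 principal components. Leiden clustering (leidenalg 0.10.2 in scanpy 1.11.5, resolution 1, 15 neighbours found with scikit-learn 1.9.0) returned 20 clusters. Tables and plots were made in Python 3.11.15 with pandas 2.3.3, scipy 1.17.1, numpy 2.4.6 and matplotlib 3.10.9. Clusters were named from marker lists, reading only genes detected in 25% of a cluster's cells as its leading genes. A cluster with no listed marker among its 10 leading genes was named general capillary if it scored highest on that list. This held for the clusters led by Atf3 (839 cells), H2-DMa (776), Slc39a1 (520), Ifit3b (487) and Gm42477 (204). Clusters led by genes of other cell types (113 cells) and 4 cells with at least 2% of UMIs from other cells' markers were left out. Clusters with Malat1 below 25% of the median cluster were called Malat1-poor. Rebuilt names may differ from the study's. No doublet caller was run, so doublets remain.

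UMIs were summed by day and group and given as CPM with exact Poisson intervals, ratios with exact binomial and shares with Clopper-Pearson 95% intervals. These cover counting error only, and with 1 pooled sample a day no test was made. The count functions were tested on simulated data. TMM factors came from edgeR 4.0.16 in R 4.3.3. Cells were thinned to 1250 UMIs for shares, and none was left out by this.

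The genes, lists and rules were chosen with earlier results of these data known, and no pattern is independent support. The text names the 5 genes throughout, the 2 highest and 2 lowest ratios of each list at each later day against d0, Thbd, Cyp1a1 and Edn1 at each day, and the 3 genes most like each of the 5. Other genes named were chosen after their values were seen. Some genes that this rule or the marker lists would name are not reported here. Alternatives were scaling, depth, cells kept, weighting, count minimum and clustering.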

Additional observations from a re-analysis of the deposited data

Results flagged for a closer look

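Some of the 5 genes had ratios between days whose counting intervals lay on opposite sides of 1 in different vessel groups. With 1 pooled sample a day these differences were not tested. Venous-like cells had a Klf2 ratio of 1.14 at d22 against d0, where aerocyte-like cells had 0.973, arterial-like cells 0.857 and general capillary-like cells 0.927. The venous ratio was 1.17, 1.33 and 1.23 times those of these 3 groups. Arterial-like cells had a Klf6 ratio of 1.24 at d22 against d15, where aerocyte-like cells had 0.817 and venous-like cells 0.684, 1.52 and 1.81 times the ratios of those groups. Aerocyte-like cells had a Nos3 ratio of 5.69 at d36 against d15, where arterial-like cells had 0.422, 13.5 times as high, and the aerocyte value rests on 11 UMIs at d36 and 2 at d15.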

How the results depend on the processing

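Over 10 alternatives, 295 of 300 ratios of the 5 genes kept their direction and 290 kept their call. The minimum of 10 CPM does not enter the ratios, so its 30 directions were fixed in advance and are among those kept. Nos3 stayed below the 50 CPM minimum, so its call could change only with the minimum of 10 CPM. Its other calls were fixed and are among those kept. At d15 against d0, 1 of the 5 genes met the size rule in place of 2 with TMM scaling and with vessel groups weighted to the same shares, since Klf2 dropped out. Klf2 ranged from 1.48 to 1.58 in that comparison and from 1.69 to 1.90 at d36 against d0, and Klf10 from 1.81 to 2.46 and from 1.76 to 1.99. In cells of 2600 to 4000 and of 6000 to 10000 UMIs, also chosen after seeing the data and not among the 10, Klf2 was 1.92 and 1.46 at d15 and 2.18 and 1.56 at d36, and Nos3 at d15 was 2.68 and 1.02. With cells thinned to equal depth, 354 genes met the rule at d15 against d0 (235 in the report's setting), 430 at d22 against d15 (271) and 135 at d36 against d15 (81), and 137 did so in the last with each cell weighted equally. With a minimum of 10 CPM the counts were 1073 at d15, 298 at d22 and 1129 at d36 against d0, 1099 at d22 against d15, 1117 at d36 against d22 and 836 at d36 against d15, because more genes were tested. In cells of 4000 to 6000 UMIs, chosen after seeing the data, they were 495, 297, 489, 524, 526 and 249 in the same order, from fewer cells. TMM scaling moved the split to 128 higher and 120 lower at d15 against d0 (from 151 and 84), 96 and 163 at d22 against d15 (from 65 and 206) and 34 and 40 at d36 against d15 (from 23 and 58). No paired analysis was possible because the cell names carry no library, and leaving out libraries could not be run for the same reason. Depth limits Nos3 most, with 121 to 417 UMIs a day.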

Other observations

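Cells of clusters left unnamed had the highest Klf2 of the groups with at least 50 cells at d0 and d36, which leaves out venous-like cells at d36. At d0 their 3021 CPM lay within the intervals of venous-like (2903 to 3081) and arterial-like cells (2878 to 3065). Most of the unnamed cells were of the cluster led by Slc6a6, Cxcl12 and Gja4. It scored highest on the general capillary list but had more arterial than general capillary markers among its leading genes. In that cluster Klf2 stood at 3009, 4545, 2694 and 5653 CPM at d0, d15, d22 and d36, with 116, 152, 194 and 112 cells, and Klf4 at 937, 1065, 784 and 1058 CPM. Nos3 stood at 24.6, 27.9, 22.2 and 5.03 CPM there, from 20, 22, 30 and 3 UMIs, with an interval of 1.04 to 14.7 at d36.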
